A study of Mus musculus with 26 samples.

Results

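The integrated stress response is the pathway through which cells answer amino acid shortage, misfolded protein in the endoplasmic reticulum, lack of heme and viral RNA. Kinases that sense these conditions phosphorylate the translation initiation factor eIF2α, general protein synthesis falls, and the mRNA of the transcription factor ATF4 is translated more. ATF4 and its partners then raise genes for amino acid synthesis and uptake, for tRNA charging and for cell fate under stress. In embryonic stem cells (ESCs), which divide quickly, the same genes also supply serine and one-carbon units for growth. The 10 genes described here were taken by symbol from the 55291 genes of the count table. They are the transcription factors Atf4, Ddit3 (which encodes CHOP) and Atf3, the effectors Chac1, Trib3 and Ddit4, the enzymes Asns, Psat1 and Phgdh, and the cystine transporter Slc7a11. All 10 passed the filter on low counts, together with 20953 genes in all. The list was chosen with earlier results of these data known, so its counts and medians beside those of all genes are descriptive.

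Poly(A) RNA was sequenced from R1 cells, a mouse ESC line grown with leukemia inhibitory factor, in 26 libraries of 13 groups with 2 libraries each. The study asked how Dux, a transcription factor that turns on genes of the 2-cell embryo, moves ESCs towards a totipotent-like state. The controls were untreated cells (ESC) and cells given the solvent DMSO. Genetically unmodified cells received retinoic acid (RA, 0.53 µM for 48 h) or PlaB (pladienolide B, an inhibitor of the splicing factor SF3B1, 4 nM for 4 days). Other cells overexpressed Dux (Dux OE), a Dux mutant that the study describes as deficient in phase separation (DuxR70A OE) or Zscan4 (Zscan4 OE) for 24 h with doxycycline at 4 µg/mL. Dux knockdown cells (Dux KD) were given RA, PlaB or Zscan4 overexpression, and cells in which the Tdpoz super-enhancer had been deleted with CRISPR-Cas9 (SE KO) were given RA, PlaB or Dux overexpression. By title, no knockdown or deletion group lacks an inducer, and no group received doxycycline alone. The effects of the genetic change alone and of doxycycline alone thus cannot be told apart from those of the combinations. For Dux KD Zscan4 OE no doxycycline dose or time is recorded. Dux was knocked down with shRNAs. The number of SE KO clones and the duration of the DMSO treatment are not given in the sources used here. Libraries of SE KO Dux OE and SE KO RA and of their matched cells are described as biological replicates. For other groups no statement on separate cultures was found, so their p-values measure the spread between libraries, which may be technical. The model shares its estimate of the spread over all groups, so the p-values of SE KO Dux OE and SE KO RA also draw on that spread.

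Library totals ranged from 14401452 to 39402840 counts with a median of 18276934, and 3 counts corresponded to 0.0796 to 0.226 CPM (counts scaled to the effective library size). Pearson r between the log2 CPM of the 2 libraries of a group lay between 0.983 and 0.992. Markers of ESCs were read in every group, with a summed level of 6 markers between 2820 and 6550 CPM. The Dux KD PlaB libraries resembled DMSO more than PlaB over all genes. They differed from DMSO in 2445 genes, against 12331 genes for PlaB, and the summed level of 5 markers of 2-cell-like cells was 4.84 to 5.08 CPM, against 7170 to 7240 CPM in PlaB and 3.02 to 4.99 CPM in DMSO. Replicate 1 of SE KO RA carries the genotype label WT although its title says SE KO. The Dux KD Zscan4 OE libraries carry the treatment label "no". In these libraries Zscan4c, a 2-cell marker, averaged 0.954 CPM, against 102 CPM in Zscan4 OE and 5.93 CPM in ESC. Whether Zscan4 was induced there is thus not shown. Retinoic acid targets were high in all 3 RA groups: Cyp26a1, which encodes the enzyme that degrades RA, averaged 63.5 to 108 CPM there and 0.89 CPM or less in every other group. In bulk RNA, fewer cells of a type and less RNA per cell cannot be told apart.

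Of these genes, 5 carry, in the promoter window of RefSeq (250 bases before the start and 50 from it, build GRCm38.p6), the core of the C/EBP-ATF response element, the DNA letters that ATF4 binds with a C/EBP partner. The core was searched on both strands as TGATGNAA. It was found in 1304 of 32851 promoter windows, which is 3.97%. The matches are shown because this element is the known ATF4 binding sequence. Capitals mark the core, written as TTGCATCA or TTACATCA where it lies on the opposite strand, and each sequence reads 5′ to 3′ along its gene.
Atf3: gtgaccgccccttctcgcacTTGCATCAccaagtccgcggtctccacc
Chac1: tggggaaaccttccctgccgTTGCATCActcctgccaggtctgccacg
Trib3: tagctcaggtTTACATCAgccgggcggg
Asns: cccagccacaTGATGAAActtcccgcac
Slc7a11: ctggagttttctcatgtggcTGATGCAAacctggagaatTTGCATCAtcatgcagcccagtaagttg

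The Atf3 sequence lies at chr1:191183416-191183463 on the minus strand, with the core 110 to 103 bases before the RefSeq start, inside an intron of the longer Atf3 model in the count table. The Chac1 sequence lies at chr2:119351029-119351076 on the plus strand, with the core 193 to 186 bases upstream. In Trib3 (chr2:152344029-152344056, minus strand) the core covers bases 15 to 22 after the RefSeq start, which is upstream of the start in the count table. In Asns (chr6:7693215-7693242, minus strand) it lies 23 to 16 bases before the RefSeq start and in an exon of the count table's Asns model. Slc7a11 (chr3:50443633-50443699, minus strand) has a core on each strand, 66 to 59 and 47 to 40 bases upstream. The windows of Atf4, Ddit3, Ddit4, Psat1 and Phgdh held no TGATGNAA. The cAMP response element TGACGTCA, present in 1.79% of promoter windows, and the endoplasmic reticulum stress element, present in 0.119%, were in none of the 10 genes' windows. A match is a description of these letters, and its absence says only that they are not in this window.

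Per length, the biosynthetic enzymes were the most abundant of these mRNAs and the transporter the least. In untreated ESCs, Asns averaged 306 CPM per kilobase of exon, Psat1 155, Phgdh 96.7 and Atf4 69.8 CPM per kilobase. Ddit4 averaged 28.1, Trib3 10.4, Chac1 5.55, Ddit3 3.22, Atf3 0.583 and Slc7a11 0.053 CPM per kilobase on the same scale. The genes also differed in how far they moved between groups. The ratio of the highest to the lowest group mean was 4.17 for Asns, 4.18 for Atf4, 4.71 for Psat1 and 6.25 for Phgdh. It was 8.15 for Trib3, 11.5 for Ddit4, 11.6 for Ddit3, 18.3 for Atf3, 22.4 for Chac1 and 24.9 for Slc7a11. Ddit3, Atf3, Trib3 and Ddit4 were highest in SE KO RA, and Atf4, Chac1 and Psat1 were highest in DMSO. Of the 120 pairs of neighbouring groups in the 10 orders of levels, 95 did not differ beyond their spread (edgeR's quasi-likelihood F-test, adjusted p of 0.05 or more).

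**Figure D1:**
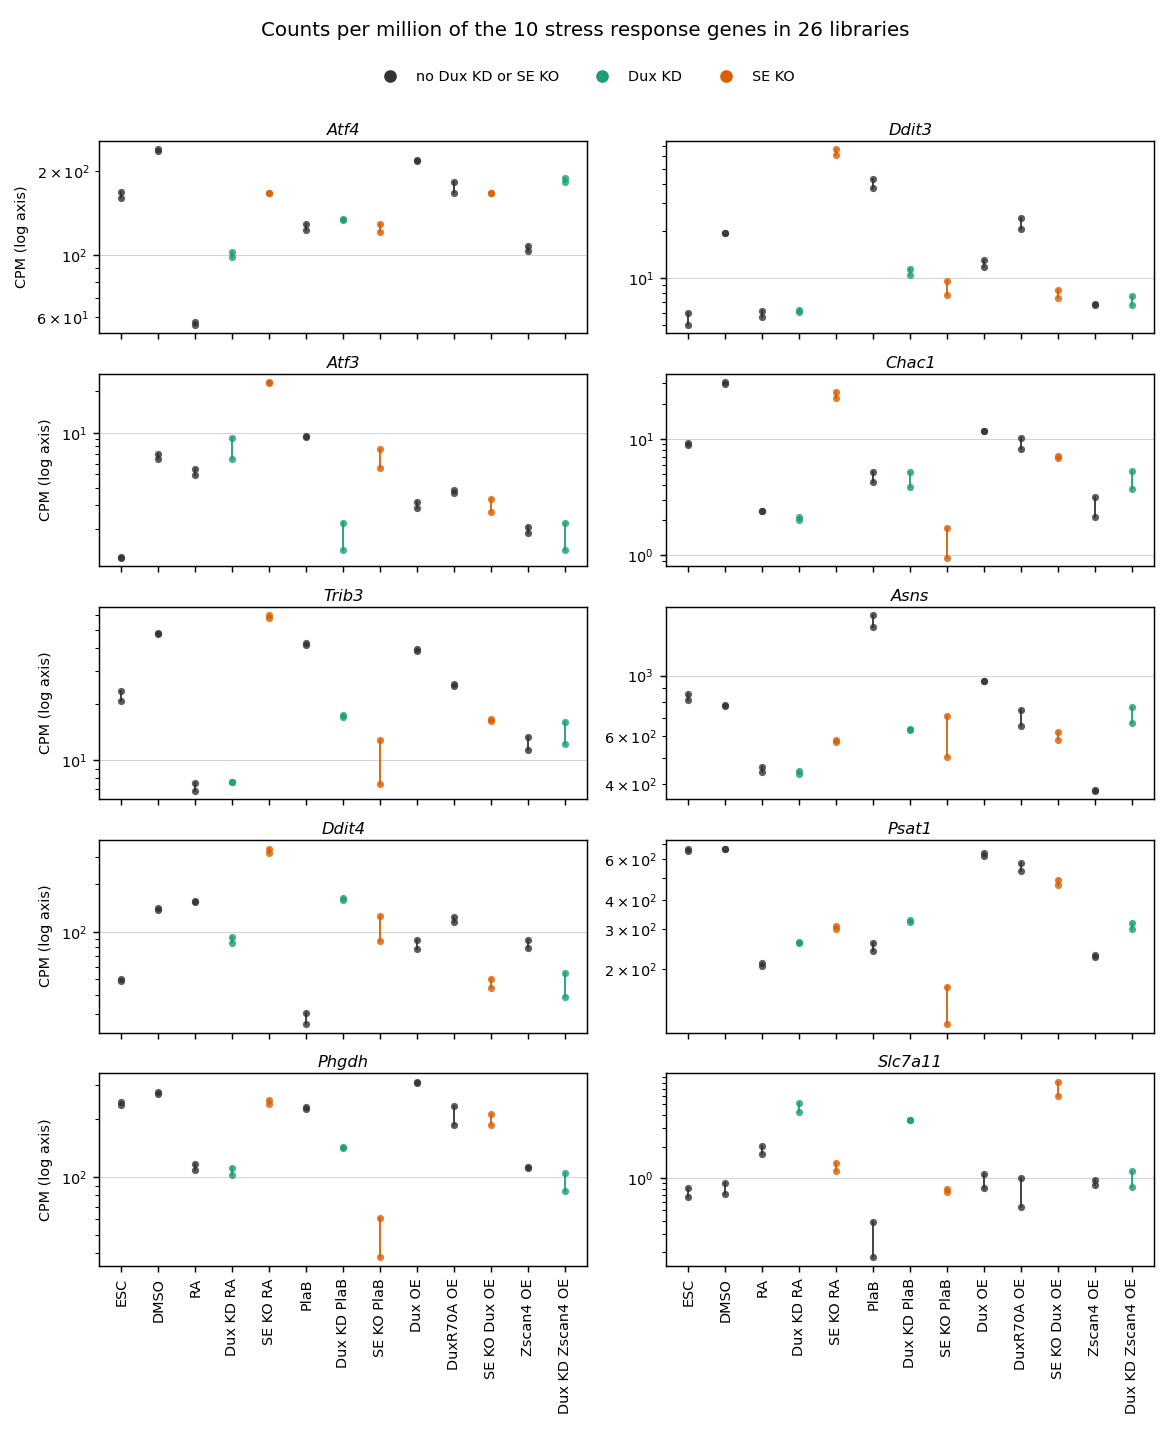
CPM on a log axis (y) of each of the 10 genes in 26 libraries, by group (x). Each point is 1 library and the line joins the 2 libraries of a group, with Dux KD groups in green and SE KO groups in orange. SE KO RA stands above RA for Ddit3 (61.3 and 66.5 against 6.21 and 5.68 CPM), Atf3, Chac1 and Trib3.

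Atf4, the central transcription factor of the pathway, had its lowest level in RA, at 57.7 and 56.4 CPM, and its highest in DMSO, at 240 and 237 CPM. Dux OE followed DMSO with 220 and 218 CPM, which did not differ from DMSO beyond the spread (adjusted p = 0.16). Untreated ESCs had 160 and 169 CPM, DuxR70A OE 167 and 183, SE KO Dux OE 167 and 167, and Dux KD Zscan4 OE 189 and 183 CPM. These groups thus lay in the upper part of the range. The SE KO RA libraries had 168 and 167 CPM and the Dux KD RA libraries 103 and 98.3 CPM, both without overlap with RA. PlaB (130 and 123 CPM), SE KO PlaB (129 and 121 CPM), Dux KD PlaB (134 and 135 CPM) and Zscan4 OE (108 and 104 CPM) lay between RA and ESC. Within PlaB the Dux knockdown and the super-enhancer deletion left the Atf4 level close to that of PlaB, with log2 differences of 0.09 ± 0.07 and -0.02 ± 0.07 (SE).

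Ddit3 encodes CHOP, a C/EBP family factor that acts with ATF4 and is known for its part in cell death under prolonged stress. Its level was 61.3 and 66.5 CPM in SE KO RA, 42.7 and 37.5 CPM in PlaB, and 20.6 and 24.4 CPM in DuxR70A OE. DMSO had 19.3 and 19.3 CPM, Dux OE 11.7 and 13 CPM, and Dux KD PlaB 11.4 and 10.4 CPM. The other 7 groups lay between 5.05 and 9.63 CPM, with untreated ESCs at 5.05 and 6 CPM, RA at 6.21 and 5.68 CPM and Dux KD RA at 6.26 and 6.07 CPM. SE KO RA therefore stood above every other group and differed from PlaB, the next in order (adjusted p = 6.51e-06). PlaB in turn differed from DuxR70A OE (adjusted p = 5.6e-07). Of the exon bases of Ddit3, 81 of 1713 are shared with Mars1 and Gm4189 on the opposite strand, and whether counting used strand is not given in the sources used here.

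Atf3, a stress-induced factor of the ATF family, had few reads in untreated ESCs, at 1.25 and 1.27 CPM. It reached 23.2 and 22.8 CPM in SE KO RA, which differed from the next group, PlaB at 9.3 and 9.44 CPM (adjusted p = 1.98e-07). Untreated ESCs had the lowest mean of the 13 groups, though the next, Dux KD PlaB, did not differ from them beyond the spread. Dux KD RA had 6.43 and 9.19 CPM, RA 5.51 and 4.94 CPM and DMSO 6.98 and 6.42 CPM. SE KO PlaB, at 5.59 and 7.6 CPM, fell in the same range. Lower levels were found in DuxR70A OE (3.87 and 3.7 CPM), Dux OE (3.14 and 2.84 CPM), SE KO Dux OE (3.35 and 2.68 CPM), Zscan4 OE (2.07 and 1.9 CPM), Dux KD Zscan4 OE (2.21 and 1.43 CPM) and Dux KD PlaB (1.42 and 2.21 CPM).

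Chac1 encodes an enzyme that degrades glutathione and is a sensitive readout of ATF4 activity. DMSO had 29.5 and 30.4 CPM and SE KO RA 25 and 22.5 CPM, and these 2 groups did not differ beyond the spread (adjusted p = 0.0759). Dux OE, at 11.7 and 11.6 CPM, DuxR70A OE, at 8.11 and 10.2 CPM, ESC, at 8.91 and 9.26 CPM, and SE KO Dux OE, at 7.14 and 6.87 CPM, formed a middle range. PlaB had 4.26 and 5.22 CPM, Dux KD PlaB 5.19 and 3.89, Zscan4 OE 2.14 and 3.15, and Dux KD Zscan4 OE 5.26 and 3.69 CPM. The gene was lowest in RA (2.38 and 2.38 CPM), Dux KD RA (2.01 and 2.12 CPM) and SE KO PlaB (0.954 and 1.73 CPM). The lowest library held 22 counts of Chac1.

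Trib3 encodes a pseudokinase induced by ATF4 and CHOP that in turn restrains them. Its highest libraries were those of SE KO RA (58 and 59.9 CPM), DMSO (48.1 and 47.9 CPM), PlaB (41.7 and 42.7 CPM) and Dux OE (39.7 and 38.7 CPM). Of the neighbouring pairs in its order, Dux OE and DuxR70A OE (25.1 and 25.8 CPM) were the only ones to differ (adjusted p = 0.00121). Untreated ESCs had 20.8 and 23.5 CPM, Dux KD PlaB 17.6 and 17, SE KO Dux OE 16.7 and 16.2, Dux KD Zscan4 OE 16 and 12.3, and Zscan4 OE 11.4 and 13.4 CPM. SE KO PlaB was uneven, with 7.42 and 12.9 CPM. RA (6.87 and 7.59 CPM) and Dux KD RA (7.64 and 7.66 CPM) were lowest.

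Ddit4 encodes REDD1, an inhibitor of mTORC1 signalling that also answers hypoxia and glucocorticoids. It was highest in SE KO RA, at 316 and 338 CPM, and lowest in PlaB, at 26.1 and 30.7 CPM. SE KO RA differed from the next group, Dux KD PlaB at 164 and 159 CPM (adjusted p = 1.48e-07). RA (154 and 156 CPM), DMSO (142 and 137 CPM), DuxR70A OE (124 and 116 CPM) and SE KO PlaB (87 and 126 CPM) came next. Dux KD RA had 92.2 and 84.6 CPM, Zscan4 OE 88.5 and 78.9 CPM, and Dux OE 77.6 and 88.7 CPM. Untreated ESCs (48.8 and 49.9 CPM), SE KO Dux OE (43.8 and 50.5 CPM) and Dux KD Zscan4 OE (54.9 and 38.4 CPM) were lower, yet PlaB lay below them without overlap. Ddit4 thus went against Asns and Ddit3 in PlaB, where those were high.

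The enzymes Asns, which makes asparagine, and Phgdh and Psat1, which carry out the opening steps of serine synthesis, were abundant in most groups. Asns was highest in PlaB, at 1660 and 1500 CPM, and the next group, Dux OE at 952 and 955 CPM, differed from it (adjusted p = 5.53e-07). ESC had 813 and 859 CPM, DMSO 782 and 770, DuxR70A OE 750 and 654, and Dux KD Zscan4 OE 767 and 671 CPM. Levels of Asns between 504 and 711 CPM were found in Dux KD PlaB (634 and 632 CPM), SE KO PlaB (504 and 711 CPM), SE KO Dux OE (578 and 623 CPM) and SE KO RA (582 and 570 CPM). RA (443 and 462 CPM), Dux KD RA (436 and 447 CPM) and Zscan4 OE (381 and 378 CPM) had the least.

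Psat1, the serine pathway's aminotransferase, was about equally high in DMSO (669 and 669 CPM), ESC (663 and 652 CPM) and Dux OE (640 and 620 CPM). It was 580 and 535 CPM in DuxR70A OE and 465 and 490 CPM in SE KO Dux OE. A lower range held Dux KD PlaB (329 and 322 CPM), Dux KD Zscan4 OE (318 and 300 CPM), SE KO RA (309 and 300 CPM), Dux KD RA (261 and 262 CPM), PlaB (259 and 239 CPM), Zscan4 OE (231 and 226 CPM) and RA (206 and 214 CPM). SE KO PlaB lay below RA, at 116 and 168 CPM (adjusted p = 2.9e-05). Phgdh, the dehydrogenase that starts the pathway, had 313 and 309 CPM in Dux OE, 269 and 277 in DMSO, 250 and 238 in SE KO RA, 236 and 245 in ESC, and 232 and 226 CPM in PlaB. DuxR70A OE had 234 and 186 CPM of Phgdh, SE KO Dux OE 186 and 212, and Dux KD PlaB 143 and 142 CPM. RA, Dux KD RA, Zscan4 OE and Dux KD Zscan4 OE lay between 84.3 and 117 CPM, and SE KO PlaB again had the least, at 38.3 and 61.2 CPM.

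Slc7a11 encodes the cystine/glutamate antiporter subunit xCT, which feeds glutathione synthesis and answers NRF2 as well as ATF4. It was a rare mRNA in these cells. The SE KO Dux OE libraries had 5.97 and 8.21 CPM, Dux KD RA 5.17 and 4.24 CPM, Dux KD PlaB 3.54 and 3.53 CPM, RA 2.03 and 1.72 CPM, and SE KO RA 1.4 and 1.18 CPM. The remaining groups lay at or below 1.17 CPM, with PlaB lowest at 0.388 and 0.182 CPM. The lowest library held 4 counts of Slc7a11, so its fold changes against PlaB rest on few reads. Its counts were also low in DMSO (16 and 13), ESC (13 and 10) and Dux OE (15 and 12). Changes against these groups carry the same limit.

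Under RA, the stress factors and effectors were higher together in the cells with the super-enhancer deletion. In SE KO RA against RA, 7 of the 10 genes were called higher and none lower, where a call needs an adjusted p below 0.05 and a log2 difference of 1 or more in either direction. Over all genes tested, 17.6% were called in this comparison, 6.57% higher and 11% lower. The median log2 difference was 1.33 for the 10 genes and -0.04 for all genes tested. As the 10 genes were chosen with earlier results known, this contrast is a description. Ddit3 rose by 3.42 ± 0.13 (log2, SE, adjusted p = 6.99e-17), which is 10.7-fold. Chac1 rose by 3.32 ± 0.2 (adjusted p = 4.01e-13) and Trib3 by 3.03 ± 0.16 (adjusted p = 2.95e-14). Atf3 rose by 2.13 ± 0.19 (adjusted p = 5.73e-10), Atf4 by 1.55 ± 0.072 (adjusted p = 2.61e-15), Phgdh by 1.11 ± 0.13 (adjusted p = 1.03e-07) and Ddit4 by 1.08 ± 0.13 (adjusted p = 1.35e-07). Psat1 and Asns passed the adjusted p but not the fold, with log2 differences of 0.53 ± 0.099 and 0.35 ± 0.1. Slc7a11 was not called, at -0.54 ± 0.3 (adjusted p = 0.141). In SE KO RA, ESC and DMSO, in that order, Atf4 averaged 167, 165 and 239 CPM and Phgdh 244, 240 and 273 CPM. Chac1 (23.8, 9.09 and 30 CPM) and Trib3 (59, 22.1 and 48 CPM) did not differ from DMSO beyond the spread. Ddit3 (63.9, 5.52 and 19.3 CPM), Atf3 (23, 1.26 and 6.7 CPM) and Ddit4 (327, 49.3 and 140 CPM) stood above both controls. The rises over RA are thus not all rises over the controls. Of the genes whose C/EBP-ATF core is shown, Chac1, Trib3 and Atf3 were called and Asns and Slc7a11 were not, while Ddit3, with the largest rise, had no core in its window. The count stayed at 7 without either library of SE KO RA or of RA, the library with the conflicting genotype label included.

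Related genes, in lists also chosen with earlier results known, moved unevenly in the same comparison. Among 11 tested effectors known downstream of ATF4, 5 were called higher and none lower, including Nupr1, a stress-induced chromatin protein (28.7 against 3.67 CPM, log2 2.97 ± 0.2), and Gdf15, a secreted stress hormone (10.4 against 2.31 CPM, log2 2.17 ± 0.24). Among 13 enzymes of serine, proline and one-carbon metabolism, 7 were called higher, with Aldh1l2 at 1.58 ± 0.18 and Pycr1 at 1.34 ± 0.13 (log2). The 1 enzyme called lower was Cth, which makes cysteine by transsulfuration and is itself known as an ATF4 target, at -2.38 ± 0.16. Of 10 amino acid transporters, 4 were called higher and none lower. Slc7a5 and Slc3a2, the subunits of the leucine transporter, rose by 1.72 ± 0.11 and 1.39 ± 0.11. Of 10 partner bZIP factors, 3 were called higher, including Jun (1.58 ± 0.12) and Junb (1.57 ± 0.14). Only Cars of 20 cytosolic aminoacyl-tRNA synthetases was called, at 1.3 ± 0.081. Of 17 genes of the ATF6 and XBP1 arm of the unfolded protein response, only the protein disulfide isomerase Pdia6 was called (1.26 ± 0.079), and of 9 NRF2 targets, a list that includes Slc7a11, none passed both limits. Among 12 eIF2α kinases and regulators the 1 call was Eif2ak1, the heme-regulated kinase, which was lower by log2 -1.16 ± 0.083.

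Other values moved with this comparison. The 2-cell-like markers summed to 50.6 to 53.7 CPM in SE KO RA and 463 to 534 CPM in RA, and the trophectoderm markers to 97.6 to 103 and 52.2 to 59.4 CPM. The 6 ESC markers summed to 2820 to 2850 CPM in SE KO RA and 2990 to 2990 CPM in RA. Within that list Esrrb averaged 94.7 against 517 CPM, Zfp42 144 against 339 CPM, and Dppa5a 1560 against 678 CPM, so its members moved in opposite directions. The mean of the RA target Cyp26a1 was 63.5 against 70.6 CPM and that of Rarb, which encodes a retinoic acid receptor, 4.23 against 10 CPM. The part of these differences in the stress gene result was not tested.

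**Figure D2:**
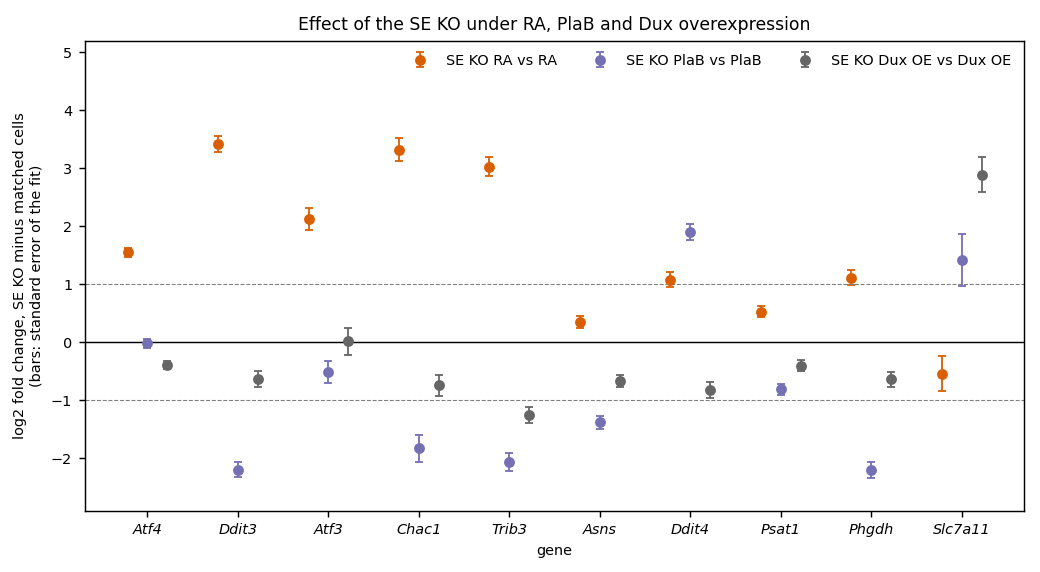
log2 fold change of SE KO cells against the matched cells (y) for each gene (x) under RA (orange), PlaB (purple) and Dux overexpression (grey). Points are edgeR estimates from 2 libraries a group, bars are their standard errors and dashed lines mark the fold limit for a call. Ddit3 stood at 3.42 under RA, -2.2 under PlaB and -0.63 under Dux overexpression.

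Under PlaB the same deletion went with lower levels of most of these genes. In SE KO PlaB against PlaB, 5 of the 10 genes were called lower and 2 higher, but 52% of all genes tested were called, 25.9% higher and 26.1% lower, so the share by itself says little about these genes. The median log2 difference was -1.1 for the 10 genes and -0.07 for all genes. Phgdh fell by 2.2 ± 0.14 (adjusted p = 4.47e-14) and Ddit3 fell by 2.2 ± 0.13 (adjusted p = 1.05e-14). Trib3 stood at -2.06 ± 0.15, Chac1 at -1.83 ± 0.24 and Asns at -1.38 ± 0.11 on the log2 scale. Ddit4 rose by 1.9 ± 0.14 (adjusted p = 1.78e-12) and Slc7a11 by 1.42 ± 0.45 (adjusted p = 0.00643), and without PlaB replicate 2 the Slc7a11 difference, 0.98, was no longer called. Without SE KO PlaB replicate 2, Psat1 was also called lower, at -1.07. The 2 SE KO PlaB libraries had the highest chi-square per degree of freedom of all 13 groups (30.2) and held the largest share of mitochondrial counts, 5.2% and 4.44%, against 1.4% and 1.56% in PlaB. Markers of 2-cell-like cells summed to 477 to 578 CPM there and to 7170 to 7240 CPM in PlaB. The part of these values in the result was not tested.

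Against DMSO, SE KO PlaB had 5 of the 10 genes lower and none higher, with 28.1% of all genes called, 17.1% higher and 11% lower. Chac1 stood at -4.49 ± 0.21, Phgdh at -2.46 ± 0.14, Psat1 at -2.24 ± 0.1, Trib3 at -2.24 ± 0.15 and Ddit3 at -1.14 ± 0.13 (log2). These levels were thus below the solvent control as well as below PlaB, though the difference of Psat1 from PlaB (-0.81 ± 0.1) did not reach the fold. In the lists, 9 of 13 serine, proline and one-carbon enzymes, 9 of 20 synthetases, 7 of 11 effectors and 7 of 10 transporters were called lower than in DMSO. Pmaip1, which encodes the apoptosis inducer NOXA, and Sesn2, a stress sensor of mTORC1, were higher in the same comparison, by 1.58 ± 0.096 and 1.45 ± 0.081. Against untreated ESCs in place of DMSO, Ddit3 turned to 0.66, and Atf3 (2.38) and Ddit4 (1.11) were called higher. Primitive endoderm markers summed to 66.1 to 78.8 CPM in SE KO PlaB and 4.72 to 5.67 CPM in DMSO, and trophectoderm markers to 144 to 249 and 15.9 to 17.5 CPM, and their part was not tested.

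With Dux overexpression, most of these genes were lower with the deletion, by less than the fold limit. In SE KO Dux OE against Dux OE, 1 gene was called higher and 1 lower, with 6.3% of all genes called, 2.46% higher and 3.84% lower. The median log2 difference was -0.64 for the 10 genes and -0.02 for all genes. Trib3 fell by 1.25 ± 0.14 (adjusted p = 6.3e-07). Slc7a11 rose by 2.89 ± 0.3 (adjusted p = 1.02e-07), 7.42-fold, with 225 and 251 counts against 15 and 12 in Dux OE. Without the fold limit, 8 of the 10 were lower, with Atf4 at -0.39 ± 0.069 and Ddit4 at -0.82 ± 0.14. How many of all genes pass without that limit was not computed. Fibroblast markers moved beside Slc7a11: the 5 markers summed to 115 to 117 CPM in SE KO Dux OE and 44.5 to 47.2 CPM in Dux OE, with Postn at 12.9 CPM against 0 counts and Col1a2 at 19.9 against 0.739 CPM. No fibroblast marker was at 0 in SE KO Dux OE, and their part in the Slc7a11 result was not tested. Markers of 2-cell-like cells summed to 1330 to 1540 CPM in SE KO Dux OE and 3200 to 3300 CPM in Dux OE. Duxf3, the Dux gene of the table, averaged 1.37 against 3.63 CPM. The part of these values in the lower levels of the stress genes was not tested.

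The difference between the deletion's effects was tested as an interaction in the same model. Between PlaB and RA, 9 of the 10 genes differed (8 lower and 1 higher under PlaB), with 49% of all genes called. The largest differences were those of Ddit3 (-5.62 ± 0.18, adjusted p = 1.48e-19), Chac1 (-5.15 ± 0.31, adjusted p = 3.76e-14) and Trib3 (-5.09 ± 0.22, adjusted p = 3.36e-17). Between Dux overexpression and RA, again 9 of the 10 differed, with 20.8% of all genes called, and Trib3 (-4.28 ± 0.21), Ddit3 (-4.06 ± 0.19) and Chac1 (-4.05 ± 0.27) led. Asns, at -1.01 ± 0.15, lay at the fold limit and was no longer called without RA replicate 1 (-0.99) or without SE KO Dux OE replicate 1 (-0.96). These comparisons share the RA and SE KO RA libraries, so their likeness is not independent. Ddit4 in the former (0.82 ± 0.19) and Psat1 in the latter (-0.93 ± 0.14) passed the adjusted p but not the fold.

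Most of these genes were lower in RA than in DMSO. In RA against DMSO, 6 of the 10 genes were called lower and 1 higher, with 31% of all genes called, 20.6% higher and 10.4% lower. The median was -1.47 for the 10 genes and 0.1 for all genes. On the log2 scale Chac1 stood at -3.65 ± 0.2 (adjusted p = 1.26e-14), Trib3 at -2.73 ± 0.16 (adjusted p = 5.05e-14) and Atf4 at -2.06 ± 0.073 (adjusted p = 1.99e-18). Ddit3 stood at -1.7 ± 0.14, Psat1 at -1.67 ± 0.1 and Phgdh at -1.27 ± 0.13. Slc7a11 rose by 1.21 ± 0.33 (adjusted p = 0.00289), and Asns (-0.78 ± 0.1), Atf3 (-0.36 ± 0.2) and Ddit4 (0.15 ± 0.13) were not called. Of the synthetases, 10 of 20 were called lower and none higher, led by Cars (84.4 against 340 CPM, log2 -2.01 ± 0.083). So were 9 of 13 serine, proline and one-carbon enzymes, including the mitochondrial folate enzyme Mthfd2 (-1.85 ± 0.098), 6 of 11 effectors and 4 of 10 transporters, including Slc7a3 (-3.16 ± 0.11), a carrier of cationic amino acids. Of the 12 eIF2α kinases and regulators, the 1 call was Eif2s1, which encodes eIF2α itself, at -1.01 ± 0.084. In the ATF6 and XBP1 arm 2 of 17 genes were called higher, Xbp1 (1.27 ± 0.11) and Dnajc3 (1.23 ± 0.1). Set against untreated ESCs in place of DMSO, Ddit3 did not differ (0.11, adjusted p = 0.574) and Atf3 (2.05, adjusted p = 1.52e-07) and Ddit4 (1.65, adjusted p = 6.93e-11) were called higher. Of 6 ESC markers, 5 were called lower in RA than in DMSO, with sums of 2990 to 2990 against 5890 to 5950 CPM. All 5 primitive endoderm markers were called higher (64.8 to 67.3 against 4.72 to 5.67 CPM), and trophectoderm markers summed to 52.2 to 59.4 against 15.9 to 17.5 CPM. Their part in the result was not tested.

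The 2 controls themselves differed in these genes. In DMSO against ESC, 5 of the 10 genes were called higher and none lower, with 16.2% of all genes called, 8.32% higher and 7.91% lower. Atf3 rose by 2.41 ± 0.26 (adjusted p = 2.13e-08), Ddit3 by 1.81 ± 0.15 (adjusted p = 1.53e-10), Chac1 by 1.72 ± 0.17 (adjusted p = 7.58e-09), Ddit4 by 1.5 ± 0.14 (adjusted p = 1.58e-09) and Trib3 by 1.12 ± 0.15 (adjusted p = 5.2e-07). Atf4 stood at 0.54 ± 0.069 and the enzymes Asns, Psat1 and Phgdh between -0.11 and 0.19. Of 11 effectors 6 were called higher, led by the lipoprotein receptor Vldlr (14.6 against 0.769 CPM, log2 4.23 ± 0.3) and Nupr1 (2.75 ± 0.23), as were 4 of 13 enzymes and 3 of 10 transporters, while none of the 20 synthetases was called. Each comparison with 1 of these controls therefore depends on which was taken.

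**Figure D3:**
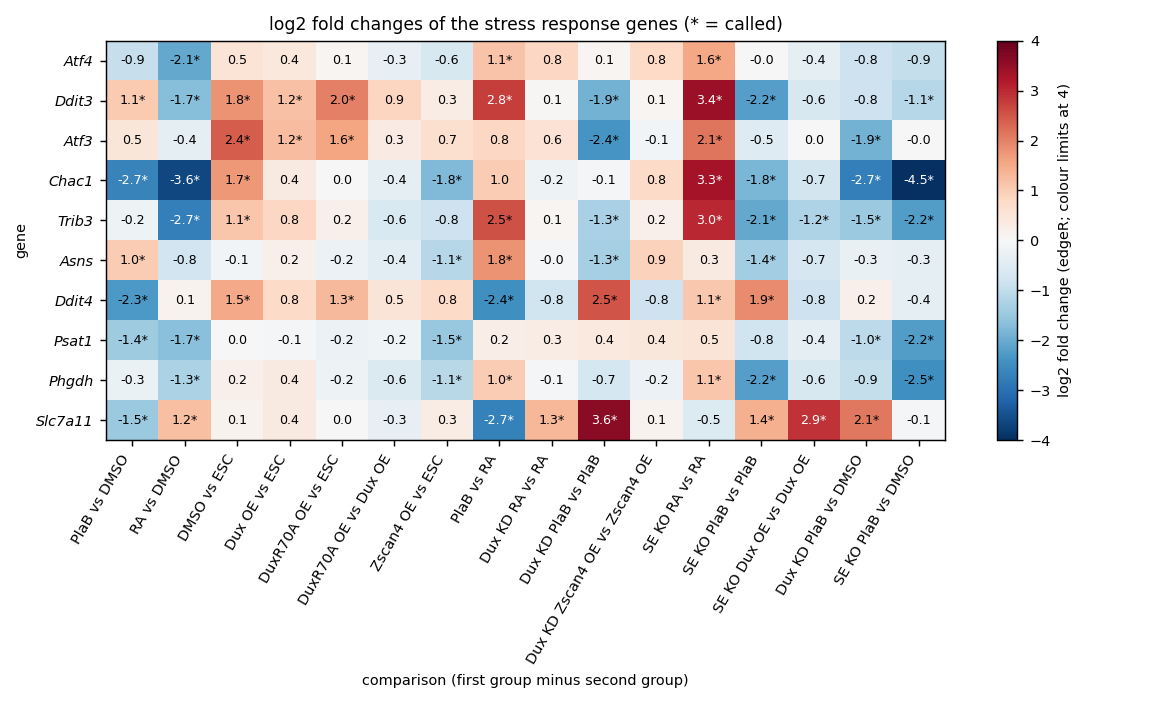
log2 fold change of each gene (rows) in the 16 comparisons of group pairs (columns), first group minus second group, from 2 libraries a group. Red is higher and blue lower, with colours limited at 4, and an asterisk marks a call. SE KO RA against RA holds 7 calls, all higher, and RA against DMSO 6 lower and 1 higher.

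In PlaB against DMSO, 2 genes were called higher and 4 lower, with 58.9% of all genes called, 32.3% higher and 26.6% lower, so the share called is near that of all genes. The median log2 difference was -0.59 for the 10 genes and 0.22 for all genes, and the latter was 0.38 under RLE and 0.48 under library size scaling. Asns rose by 1.03 ± 0.1 and Ddit3 by 1.05 ± 0.12, both at the edge of the fold limit. Neither was called without PlaB replicate 1 or without DMSO replicate 1, where Atf4 was called lower instead (-1.06 and -1.01), and Asns was not called without DMSO replicate 2 (0.99). Chac1 stood at -2.66 ± 0.18 (adjusted p = 2.84e-13), Ddit4 at -2.3 ± 0.14 (adjusted p = 3.18e-14), Slc7a11 at -1.5 ± 0.46 (adjusted p = 0.00463) and Psat1 at -1.42 ± 0.1 (adjusted p = 5.86e-13). Without PlaB replicate 2, Slc7a11 was no longer called (-1.06, adjusted p = 0.073). Against untreated ESCs in place of DMSO, Chac1 (-0.94), Ddit4 (-0.8) and Asns (0.92) missed the fold and Atf3 was called higher (2.89). Ddit3 stayed called against untreated ESCs, at 2.86 (40.1 against 5.52 CPM), so its small margin holds only against DMSO. Atf4 stood at -0.91 ± 0.07 and Trib3 at -0.19 ± 0.14. The lists were also mixed. Of the NRF2 targets, Slc7a11 among them, 7 of 9 were called lower and 1 higher, and of the transporters 7 of 10 were called lower, with Slc7a5 at 6.97 against 552 CPM (-6.3 ± 0.14). Of the synthetases 8 of 20 were called lower, led by Vars (-4.58 ± 0.12). Among the eIF2α regulators 4 were called in each direction: the translation factor subunits Eif2b4 and Eif2b1 rose by 1.76 ± 0.11 and 1.38 ± 0.16, and Ppp1r15b, a subunit of the phosphatase that reverses the signal, and Eif2ak3, the kinase PERK, stood at -3.07 ± 0.077 and -2.16 ± 0.12. Trophectoderm markers summed to 430 to 441 CPM in PlaB and 15.9 to 17.5 CPM in DMSO, and the ESC marker Esrrb averaged 92.1 against 1160 CPM, and their part in these differences was not tested.

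PlaB and RA were both used to reach the 2-cell-like state. In PlaB against RA, 5 were called higher and 2 lower, with 57.9% of all genes called, 27.9% higher and 30% lower, so the share is again not far from that of all genes. Ddit3 stood at 2.75 ± 0.13, Trib3 at 2.54 ± 0.16, Asns at 1.8 ± 0.11, Atf4 at 1.15 ± 0.072 and Phgdh at 1.02 ± 0.13, and Slc7a11 at -2.71 ± 0.39 and Ddit4 at -2.44 ± 0.14. Chac1, at 1 ± 0.22, lay at the fold limit and was called under RLE scaling (1.12). Phgdh lost its call without PlaB replicate 1 (0.95), without RA replicate 1 (0.95), without the Dux KD PlaB libraries (0.99) and without the low-count filter (0.89). Of the effectors, the endoplasmic reticulum protein gene Herpud1 was at 120 against 15.7 CPM and the translation repressor gene Eif4ebp1 at 570 against 89.5 CPM.

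With knockdown of Dux under RA, 1 gene differed past both limits. In Dux KD RA against RA, with 10.9% of all genes called (6.41% higher and 4.53% lower), Slc7a11 rose by 1.32 ± 0.27 (adjusted p = 0.000275). Atf4 stood at 0.82 ± 0.072 (adjusted p = 2.11e-09), higher in both libraries, and Ddit4 at -0.81 ± 0.13 (adjusted p = 2.43e-05), lower in both, but neither reached the fold. Ddit3 (0.05 ± 0.15), Trib3 (0.08 ± 0.18), Asns (-0.04 ± 0.1) and Phgdh (-0.09 ± 0.13) did not pass the test. Duxf3, the Dux gene of the table, had 16 and 6 counts in Dux KD RA and 49 and 59 counts in RA. None of the serine, proline and one-carbon enzymes, transporters or synthetases was called.

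In Dux KD Zscan4 OE against Zscan4 OE, none of the 10 genes was called (edgeR, and DESeq2 also called none). Of all genes, 11.1% were called, 5.78% higher and 5.35% lower. Zscan4c averaged 0.954 against 102 CPM, and the 2-cell-like markers summed to 2.14 to 3.16 against 242 to 249 CPM. No doxycycline is recorded for Dux KD Zscan4 OE, so a missing induction cannot be told apart from the knockdown here. Without the fold limit, 5 genes differed, by the adjusted p and by an unadjusted p under 0.05: Asns (0.92 ± 0.11), Atf4 (0.81 ± 0.071), Chac1 (0.75 ± 0.24) and Psat1 (0.44 ± 0.1) were higher and Ddit4 (-0.84 ± 0.14) lower. Without Dux KD Zscan4 OE replicate 1, Ddit4 was called, at -1.15. Without its replicate 2, Asns was called, at 1.01, and without Zscan4 OE replicate 2, Chac1 was called, at 1.07. The difference of the knockdown effect between Zscan4 OE and RA was past both limits for none of the 10 in edgeR or DESeq2, with 12.3% of all genes called, and 3 of the 10 had an unadjusted p under 0.05. For neither result was the share of all genes that passes without the fold limit computed.

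In Dux KD PlaB against PlaB, 4 genes were called lower and 2 higher, with 54.9% of all genes called, 26.1% higher and 28.8% lower. The share called is thus near that of all genes. Slc7a11 stood at 3.62 ± 0.37 and Ddit4 at 2.51 ± 0.14, Atf3 at -2.37 ± 0.23, Ddit3 at -1.88 ± 0.13, Asns at -1.32 ± 0.11 and Trib3 at -1.29 ± 0.15. As given above, these libraries resembled DMSO more than PlaB over all genes. Against DMSO, 4 genes were called lower and 1 higher, with 11.7% of all genes called, 7.53% higher and 4.14% lower. Chac1 stood at -2.72 ± 0.19, Atf3 at -1.88 ± 0.24, Trib3 at -1.47 ± 0.15, Psat1 at -1.04 ± 0.1 and Slc7a11 at 2.12 ± 0.32. Of the effectors 6 of 11, of the synthetases 6 of 20 and of the transporters 5 of 10 were called lower than in DMSO, and none of these was called higher. The knockdown's effect under PlaB differed from that under RA for 6 of the 10 genes, with 52.2% of all genes called, again a share near that of all genes.

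Ddit3 and Atf3, which both had their lowest group mean in untreated ESCs, were higher than there with Dux and with its mutant. In Dux OE against ESC, 2 of the 10 genes were called higher, with 9.51% of all genes called (7.38% higher and 2.12% lower): Atf3 (1.24 ± 0.29, adjusted p = 0.00199) and Ddit3 (1.16 ± 0.15, adjusted p = 1.37e-06). Trib3 (0.82 ± 0.15), Ddit4 (0.75 ± 0.14), Atf4 (0.42 ± 0.07) and Phgdh (0.37 ± 0.13) were higher by the adjusted p alone. In DuxR70A OE against ESC, 3 were called higher, with 16.9% of all genes called (10.2% higher and 6.72% lower): Ddit3 (2.03 ± 0.14, adjusted p = 1.59e-11), Atf3 (1.59 ± 0.28, adjusted p = 3.23e-05) and Ddit4 (1.29 ± 0.14, adjusted p = 1.96e-08). Between the mutant and wild-type Dux, none was called (13.6% of all genes, 6.11% higher and 7.51% lower), by edgeR and by DESeq2, although 6 passed both the adjusted p and an unadjusted p under 0.05 and missed only the fold. Ddit3 (0.87 ± 0.13) and Ddit4 (0.53 ± 0.13) were higher with the mutant, and Trib3 (-0.62 ± 0.15), Phgdh (-0.57 ± 0.13), Asns (-0.44 ± 0.1) and Atf4 (-0.33 ± 0.069) lower. No share of all genes was computed without the fold limit. Scaled by library size alone, Ddit3 reached the fold (1.06). Against DMSO in place of ESC, Ddit3 (-0.65), Atf3 (-1.16) and Chac1 (-1.36) were lower in Dux OE. In DuxR70A OE the 3 calls ended, with Ddit3 at 0.22, Atf3 at -0.82 and Ddit4 at -0.21, and Chac1 was called lower (-1.72). The table's Duxf3 had 55 and 48 counts in Dux OE and 0 in both DuxR70A OE libraries, so these counts do not show the mutant transgene. Cells without a Dux transgene by label had 191 and 181 counts in PlaB and 49 and 59 in RA. The counts in Dux OE therefore cannot be assigned to the wild-type transgene either. Zscan4c, a 2-cell marker, averaged 811 CPM in Dux OE and 0.0851 CPM in DuxR70A OE.

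With Zscan4 overexpression the enzymes were lower than in untreated ESCs. In Zscan4 OE against ESC, 4 genes were called lower and none higher, with 11.6% of all genes called, 7.25% higher and 4.39% lower. Chac1 stood at -1.76 ± 0.22 (adjusted p = 3.51e-07), Psat1 at -1.52 ± 0.1 (adjusted p = 8.15e-12), Asns at -1.14 ± 0.11 (adjusted p = 3.5e-09) and Phgdh at -1.1 ± 0.13 (adjusted p = 2.37e-07). Scaled by library size alone, Asns (-0.99) and Phgdh (-0.94) fell just short of the fold. Of the other enzymes 3 of 13 were called lower, including the mitochondrial phosphoenolpyruvate carboxykinase Pck2 (-1.66 ± 0.14), and of the synthetases 3 of 20, including Gars (-1.19 ± 0.11). Jun and Fos were higher, by 2.39 ± 0.18 and 2.24 ± 0.23.

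**Figure D4:**
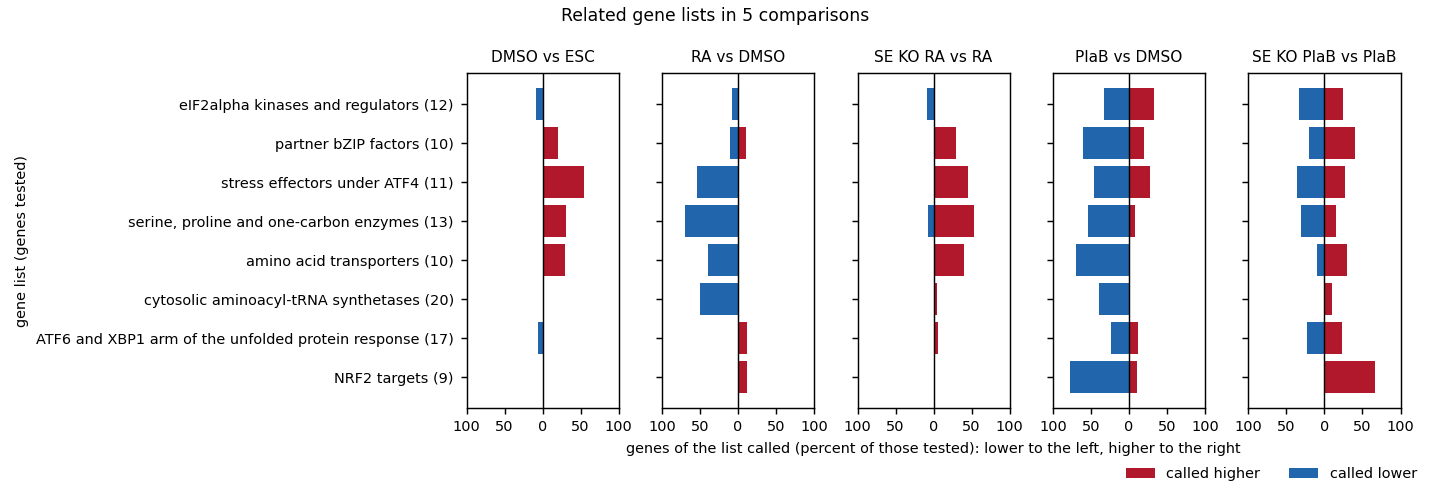
Share of the tested genes of each related list (rows, with the number tested) that was called higher (red, to the right) or lower (blue, to the left), in percent (x), in 5 comparisons. In SE KO RA against RA, 7 of 13 serine, proline and one-carbon enzymes were higher and 1 lower, while in RA against DMSO 9 were lower and none higher.

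Across the 13 group means of log2 CPM, the genes did not move as 1 block. As a description over points that share normalization and cell line, Pearson r was 0.873 between Chac1 and Trib3, 0.858 between Chac1 and Phgdh, 0.816 between Ddit3 and Trib3, and 0.815 between Psat1 and Phgdh. Atf4 had r of 0.738 with Chac1 and 0.715 with Trib3, but -0.106 with Atf3 and -0.099 with Ddit4, and Slc7a11 had its highest r, 0.2, with Ddit4. Outside the 10, the genes with the most similar patterns were taken from those averaging 1 or more in log2 CPM, and some belong to the lists above. For Chac1 they were the transporter subunit Slc3a2 (r = 0.961) and the proline enzyme Pycr1 (0.93), and for Atf4 the synthetases Cars (0.931) and Yars (0.867). Psat1 was most like Yars (0.924) and Tspan4 (0.915), and Phgdh most like Nipsnap1 (0.894) and Mthfd2 (0.893). Ddit3 was most like Tor2a (0.933), Atf3 like Letmd1 (0.965), Trib3 like Angptl6 (0.923), Asns like Atp23 (0.922), Ddit4 like Ptprs (0.941) and Slc7a11 like Dzip3 (0.823).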

How the data were processed

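Poly(A) RNA libraries (NEBNext Ultra II) of R1 mouse ESCs were sequenced. The authors deposited a table of raw read counts per gene for 26 libraries. The submitters' processing notes name FastQC, Trimmomatic, STAR, featureCounts, DESeq2 and build mm10, with no versions, and whether counting used strand is not given in the sources used here. Counts of all 26 libraries were fitted in 1 model with edgeR 4.0.16 (R 4.3.3, limma 3.58.1) using TMM scaling, filterByExpr and the quasi-likelihood F-test. The filter kept 20953 of 55291 genes. P-values were adjusted over all genes tested by the Benjamini-Hochberg method, and a call needed an adjusted p under 0.05 with an absolute log2 difference not below 1. CPM used effective library sizes.

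There were 16 comparisons of group pairs and 4 tests of a difference between effects. Alternatives were DESeq2 1.42.0, RLE and library size scaling, no low-count filter, no minimum fold, only the compared groups, the other control, a replicate block, each library left out, and both Dux KD PlaB libraries left out. Samples were grouped by title. Same-numbered libraries of different groups did not deviate together (r from -0.0473 to 0.0237), so the numbers do not pair samples. The model was tested on simulated data.

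The 10 genes and the related gene lists were chosen with earlier results of these data known. Named list genes were the 2 largest called rises and falls per list and comparison with an average log2 CPM of 1 or more, and like genes were the 2 with the highest Pearson r over 13 group means. Col1a2, Postn, Esrrb, Zfp42 and Dppa5a were named after their values were seen. Promoter sequences are RefSeq's (GRCm38.p6), and all 10 genes matched by symbol.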

Additional observations from a re-analysis of the deposited data

Results flagged for a closer look

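The results below were singled out because the effect of the same genetic change differed between inducers by the interaction test in edgeR (adjusted p under 0.05 and a log2 difference of 1 or more). Groups of 2 libraries are too small for a test of a library that stands apart within its group.

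The super-enhancer deletion's effect under PlaB minus that under RA was -1.57 for Atf4, -5.62 for Ddit3, -2.64 for Atf3, -5.15 for Chac1, -5.09 for Trib3, -1.73 for Asns, -1.35 for Psat1 and -3.31 for Phgdh on the log2 scale. For Slc7a11 it was 1.96. The same effect under Dux overexpression minus that under RA was -1.95 for Atf4, -4.06 for Ddit3, -2.11 for Atf3, -4.05 for Chac1, -4.28 for Trib3, -1.01 for Asns, -1.9 for Ddit4 and -1.75 for Phgdh, and 3.43 for Slc7a11. Both sets use the same RA and SE KO RA libraries. Over all genes tested, 49% were called in the former set and 20.8% in the latter.

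The Dux knockdown's effect under PlaB minus that under RA was -1.93 for Ddit3, -2.94 for Atf3, -1.37 for Trib3 and -1.28 for Asns, and 3.31 for Ddit4 and 2.3 for Slc7a11. The Dux KD PlaB libraries enter each of these 6 values, and over all genes they differed from DMSO in 2445 genes against 12331 for PlaB. For this difference of knockdown effects 52.2% of all genes were called, which is near the share of the 10 genes.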

How the results depend on the processing

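Among the values of single genes under the alternatives, 2478 kept their call or lack of one, 79 gained a call, 29 lost one and 14 values that were called in either fit turned direction. Of the 2478, 62 changed sign without a call in either fit, and in 3 of these both values passed the adjusted p. These 3 came from the other control: Ddit3 in Dux KD PlaB (0.98 against ESC, -0.83 against DMSO), Ddit4 in Dux OE (-0.75 against DMSO, 0.75 against ESC) and Ddit4 in Zscan4 OE (-0.74 and 0.76). The 14 also came from the choice of control, and in 5 of them both values passed the adjusted p. For Chac1 in DuxR70A OE the value against ESC was 0 ± 0.19. With untreated ESC in place of DMSO, RA stood at 0.11 for Ddit3 and 2.05 for Atf3, Dux KD PlaB at 0.53 for Atf3, and SE KO PlaB at 0.66 for Ddit3, 2.38 for Atf3 and 1.11 for Ddit4 (log2). With DMSO in place of ESC, Dux OE stood at -0.65 for Ddit3, -1.16 for Atf3 and -1.36 for Chac1, DuxR70A OE at -0.82 for Atf3, -1.72 for Chac1 and -0.21 for Ddit4, and Zscan4 OE at -1.51 for Ddit3 and -1.75 for Atf3. The swap also moved the number of the 10 genes called, to 1 for DuxR70A OE (from 3), 8 for Zscan4 OE (from 4) and 3 for Dux KD PlaB (from 5). Of the 20953 genes tested, it moved the number called to 1897 (from 3550), 2674 (from 2439) and 2587 (from 2445) in the same order.

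Without the minimum fold, the counts became 6 for Dux OE against ESC, 6 for DuxR70A OE against Dux OE, 7 for Zscan4 OE against ESC, 5 for Dux KD RA against RA, 5 for Dux KD Zscan4 OE against Zscan4 OE, 9 for SE KO Dux OE against Dux OE, 9 for Dux KD PlaB and 8 for SE KO PlaB against DMSO, and 2 for the difference of the knockdown effect between Zscan4 OE and RA. The share of all genes that passes without the minimum fold was not computed, so these counts have no background beside them. Scaled by library size alone, DuxR70A OE against Dux OE had 1 call, Zscan4 OE against ESC had 2 and that difference of effects had 1. With each library left out in turn, the count ranged from 0 to 1 for Dux KD Zscan4 OE against Zscan4 OE and from 0 to 2 for that difference. The replicate block changed no count and no call, with 7 of the 10 genes still called in SE KO RA against RA. In the orders of levels, 93 of 120 neighbouring pairs did not differ beyond the spread under RLE or library size scaling, against 95. Slc7a11, with 4 counts in its lowest library, had the fewest reads of the 10 genes.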
